A study of Mus musculus with 6 samples.

Results

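A set of 8 interferon-stimulated genes was followed in retinal glia of aged mice and, for comparison, in the other cell types of the same retinas. The set, Ifit1, Ifit2, Ifit3, Ifit3b, Isg15, Irf7, Ifi27 and Bst2, is a fixed list out of 52636 genes in the count table, and it was selected on earlier results from these same data. Their levels, the numbers of positive cells and their p-values are therefore given as a description. The 6 retinas came from 12-month-old male C57BL/6J mice and were profiled with droplet-based 3′ single-cell RNA sequencing, 3 from Dram2 wt/wt mice (labelled Dram2 WT) and 3 from Dram2 ko/ko mice (labelled Dram2 KO). The knockout is constitutive and removes exon 4 of Dram2, so every cell type carries it, and 3′-end counts of Dram2 do not check the genotype. Retina 3 of each genotype formed batch 1 and retinas 1 and 2 formed batch 2.

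Interferons are secreted proteins released on detection of viral or displaced nucleic acid. Type I interferons bind the receptor made of Ifnar1 and Ifnar2, whose kinases Jak1 and Tyk2 activate transcription factors that enter the nucleus and bind a GAAA-rich element in the promoters of interferon-stimulated genes. Irf7, a transcription factor that is itself induced, amplifies the response. Ifit1, Ifit2, Ifit3 and Ifit3b encode cytoplasmic tetratricopeptide-repeat proteins that act against viral RNA, Isg15 encodes a ubiquitin-like modifier, Bst2 encodes tetherin, which holds budding virus at the cell surface, and Ifi27 encodes a small hydrophobic protein of intracellular membranes. Müller cells, the main glia of the retina, span its whole depth and support its neurons.

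The 4 Ifit genes lie close together on the plus strand of chromosome 19 (GRCm38, GENCODE M21). Ifit2 is at chr19:34550694-34576419, Ifit3 at chr19:34583531-34588731, Ifit3b at chr19:34607970-34613401 and Ifit1 at chr19:34640871-34650009. Isg15 lies at chr4:156199424-156200818, Irf7 at chr7:141262706-141266481 and Bst2 at chr8:71534255-71537456, all on the minus strand, and Ifi27 lies at chr12:103434211-103440239 on the plus strand. All 8 are protein-coding. Irf7 overlaps Phrf1 on the opposite strand. The transcripts of Ifit3 and Ifit3b are 98.0% identical over 1697 aligned bases, and 6.57% of all 90-base windows within the last 500 bases of Ifit3, the end that a 3′ library reads, occur unchanged in Ifit3b. Most of these windows thus differ between both genes, but reads from the shared stretches do not tell them apart. Their separate values therefore carry some uncertainty.

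Promoter sequence is shown for the genes that hold the GAAA-rich element, because these letters are what the 8 genes could share beyond the list itself. RefSeq promoter windows (250 bases before to 50 after the start, GRCm38.p6) were found for 7 of the 8 genes, all but Ifi27. The motif GAAANNGAAA or its reverse TTTCNNTTTC, searched on both strands, occurred in 5 of these 7 genes and in 1131 of all 32851 windows (3.44%). It was not found in the windows of Ifit2 and Irf7. Each stretch is written 5′ to 3′ on the strand of its gene, with the matching bases in capitals.
Ifit1, chr19:34640760-34640838, plus strand: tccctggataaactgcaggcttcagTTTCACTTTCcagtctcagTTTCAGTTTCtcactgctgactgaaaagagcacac
Ifit3, chr19:34583348-34583441, plus strand: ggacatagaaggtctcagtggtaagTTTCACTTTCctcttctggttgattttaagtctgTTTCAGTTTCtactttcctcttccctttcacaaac
Ifit3b, chr19:34607744-34607837, plus strand: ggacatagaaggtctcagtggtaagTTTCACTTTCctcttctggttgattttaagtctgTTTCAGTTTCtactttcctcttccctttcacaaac
Isg15, chr4:156200850-156200921, minus strand: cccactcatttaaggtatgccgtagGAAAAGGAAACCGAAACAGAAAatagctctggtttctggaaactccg
Bst2, chr8:71537562-71537627, minus strand: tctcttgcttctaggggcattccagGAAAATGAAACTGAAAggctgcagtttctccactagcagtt
The stretches of Ifit3 and Ifit3b were the same in every letter, and both carried 2 matches that faced against the direction of transcription. In Ifit1 the 2 matches also faced against the direction of transcription, while in Isg15 3 overlapping matches and in Bst2 2 overlapping matches faced along it. A match is a description of the letters and not evidence of binding.

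The glia comprised 942 of 46375 cells, with 171, 87 and 269 in wt/wt retinas 1, 2 and 3 and 102, 88 and 225 in ko/ko retinas 1, 2 and 3. A glial cell held a median of 1683 UMIs, against 428 in photoreceptors, and the summed depth of the glia of 1 retina was 145343 to 453224 UMIs. The label was borne out by markers: 9 of 10 Müller cell genes were highest in glia in all 6 retinas, for example Glul at a mean of 15820 CPM (UMIs of a gene per 1000000 UMIs of the summed cells), and the exception, Clu, was higher in RPE cells in 5 of 6 retinas. Of the astrocyte markers, Gfap (41.4 CPM), S100b (147 CPM) and Aldoc (1297 CPM) were also highest in glia. Aldoc was at 704 CPM in interneurons too, and Pax2 averaged only 1.75 CPM in glia. Whether astrocytes are among the glia was not tested. Microglia markers summed to 53.3 to 96.3 CPM in glia, and 9 glial cells held 2 or more UMIs of that list. The batches differed in mitochondrial share, which was 3.22% and 2.75% in the retinas of batch 1 and 0.405% to 0.720% in the others. Cell identifiers in the files do not show the 10x barcodes, so barcodes shared between libraries could not be counted.

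Summed over the 8 genes, levels were higher in glia, mesenchymal cells and RPE cells than in photoreceptors and interneurons, although Irf7 and Ifit2 did not follow this order and 4 of the 8 genes were not detected in RPE cells. Glia ranked highest for 3 of the 8 genes, Ifi27, Ifit3 and Ifit3b, and mesenchymal cells ranked highest for the other 5. The summed mean over 6 retinas was 1589 CPM ± 534 (SD, n = 6) in mesenchymal cells, 990 CPM ± 496 in glia, 621 CPM ± 268 in RPE cells, 52.0 CPM ± 14.5 in interneurons and 45.3 CPM ± 6.78 in photoreceptors. Mesenchymal cells were above glia in 4 of 6 retinas, and glia were above RPE cells in 5 of 6, so these neighbours in the order overlapped. Glia were above interneurons and photoreceptors in 6 of 6 retinas. In bulk sums of this kind, fewer expressing cells and less RNA per cell cannot be told apart, and the numbers of cells are given below for that reason.

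**Figure D1:**
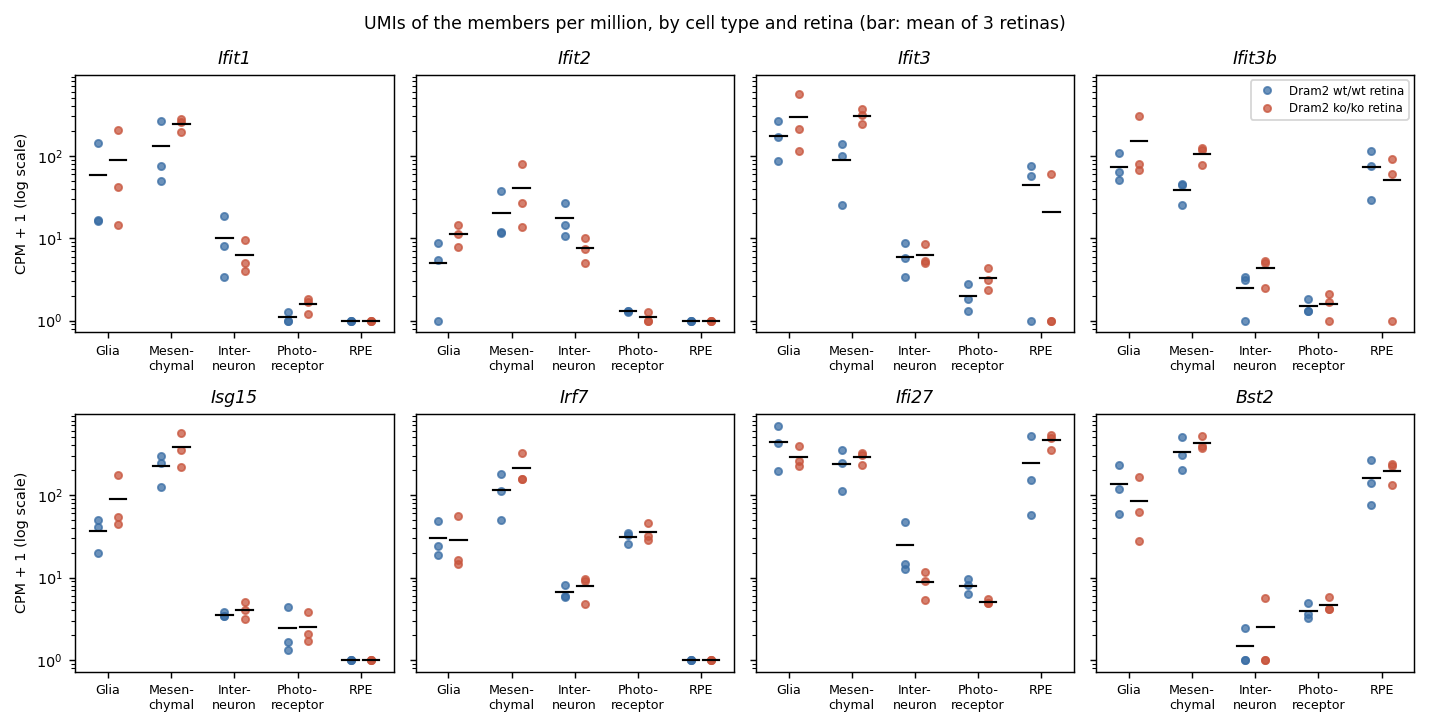
CPM plus 1 (log axis) of each of the 8 genes in the 5 cell types, with 1 point per retina (blue wt/wt, red ko/ko) and a bar at the mean of 3 retinas. Ifit3, Ifit3b and Ifi27 have their highest mean over 6 retinas in glia, Isg15, Irf7 and Bst2 are highest in mesenchymal cells, and Irf7 in photoreceptors (32.3 CPM) lies beside its level in glia (28.5 CPM).

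Ifi27 was the most abundant of the 8 genes in glia. Its level was 428, 696 and 194 CPM in wt/wt retinas 1, 2 and 3 and 389, 227 and 256 CPM in ko/ko retinas 1, 2 and 3. The genotypes overlapped, with the highest and the lowest value both in wt/wt retinas. RPE cells (351 CPM ± 206, n = 6) and mesenchymal cells (262 CPM ± 87.8) were not separated from glia (365 CPM ± 187): glia were higher than either in 3 of 6 retinas. Interneurons (15.7 CPM) and photoreceptors (5.53 CPM) were lower in all 6.

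Ifit3 followed, at 168, 261 and 86.1 CPM in wt/wt retinas 1, 2 and 3 and at 114, 564 and 213 CPM in ko/ko retinas. Its near-copy Ifit3b was at 49.6, 107 and 61.8 CPM in wt/wt retinas and at 67.0, 303 and 78.7 CPM in ko/ko retinas. For both genes ko/ko retina 2 stood above the other 5 retinas, which overlapped. Glia held 63.0% of all Ifit3 UMIs and 67.6% of all Ifit3b UMIs of the series. Mesenchymal cells were close, at 197 CPM for Ifit3 and 71.1 CPM for Ifit3b, with glia higher in 3 and in 4 of 6 retinas. Photoreceptors were at 1.64 CPM and 0.545 CPM.

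Bst2 was at 118, 228 and 57.4 CPM in the glia of wt/wt retinas and at 26.8, 165 and 60.9 CPM in those of ko/ko retinas. It was lower in glia (109 CPM) than in mesenchymal cells (381 CPM) in all 6 retinas, and lower than in RPE cells (178 CPM) in 4 of 6. The value of ko/ko retina 1 rested on 4 UMIs in 3 cells.

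Ifit1 and Isg15 were detected in few glial cells. Ifit1 was at 15.3, 141 and 15.4 CPM in wt/wt retinas and at 13.4, 206 and 40.6 CPM in ko/ko retinas, so retina 2 of each genotype was far above the others. Isg15 was at 19.1, 40.2 and 48.5 CPM in wt/wt retinas and at 53.6, 172 and 43.1 CPM in ko/ko retinas, with ko/ko retina 2 highest. Both were higher in mesenchymal cells, at 187 CPM for Ifit1 (4 of 6 retinas) and 300 CPM for Isg15 (6 of 6 retinas).

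Irf7 and Ifit2 were near the limit of detection in glia. Irf7 gave 6, 7 and 8 UMIs in wt/wt glia and 2, 8 and 6 UMIs in ko/ko glia, a mean of 28.5 CPM that did not exceed the 32.3 CPM of photoreceptors, with glia higher in 2 of 6 retinas. Photoreceptors held 668 Irf7 UMIs, 81.4% of all, and mesenchymal cells had the highest level at 162 CPM. Ifit2 gave 2, 0 and 2 UMIs in wt/wt glia and 2, 1 and 4 UMIs in ko/ko glia. The 0 in wt/wt retina 2 was out of 87 cells, which allows up to 3.45% of cells with a UMI and sets no limit on the cells that express the gene. Ifit2 was higher in interneurons (11.5 CPM, 50 UMIs) than in glia (7.08 CPM) on average, and each was higher in 3 of 6 retinas.

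In RPE cells, 0 UMIs were counted for Ifit1, Ifit2, Isg15 and Irf7 in 116 cells, which allows up to 2.59% of cells with a UMI and 19.8 CPM for each. These limits cover counting error only. The UMIs in RPE cells were 49 of Ifi27, 26 of Bst2, 9 of Ifit3b and 5 of Ifit3. For Ifit3b the mean was 60.5 CPM, and glia were higher than RPE cells in 4 of 6 retinas.

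The number of positive glial cells, those with at least 1 UMI of a gene, differed widely between retinas. Ifi27 was found in 67 of 171, 53 of 87 and 55 of 269 glial cells of wt/wt retinas 1, 2 and 3 and in 33 of 102, 21 of 88 and 62 of 225 of ko/ko retinas. As shares, wt/wt averaged 40.2% ± 20.3 (SD, n = 3) and ko/ko 27.9% ± 4.26, and the groups overlapped. The highest share was 60.9% in wt/wt retina 2 and the lowest 20.4% in wt/wt retina 3.

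Ifit3 was found in 26, 23 and 29 glial cells of wt/wt retinas and in 13, 12 and 40 of ko/ko retinas. Ifit3b was found in 13, 14 and 24 cells of wt/wt retinas and in 10, 8 and 24 of ko/ko retinas. The mean share of Ifit3-positive cells was 17.5% ± 8.07 in wt/wt and 14.7% ± 2.69 in ko/ko, and that of Ifit3b-positive cells 10.9% ± 4.57 and 9.85% ± 0.789. The share in ko/ko retina 2 was inside the range of the others for both genes, although its CPM was the highest.

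Bst2 was found in 23, 28 and 21 glial cells of wt/wt retinas and in 3, 10 and 19 of ko/ko retinas. Its mean share was 17.8% ± 12.8 in wt/wt and 7.58% ± 4.28 in ko/ko, and 2 of the ko/ko retinas overlapped the wt/wt range. The difference, ko/ko minus wt/wt, was -15.7 percentage points within batch 2 and 0.638 within batch 1, which has 1 retina per genotype.

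The other 4 genes were rare. Ifit1 was found in 4, 12 and 5 cells of wt/wt and 2, 7 and 10 cells of ko/ko retinas. Isg15 was found in 4, 4 and 10 and in 4, 4 and 9 cells, Irf7 in 6, 7 and 5 and in 2, 5 and 5 cells, and Ifit2 in 2, 0 and 2 and in 2, 1 and 4 cells. Their mean shares lay between 0.638% (Ifit2, wt/wt) and 6.00% (Ifit1, wt/wt), and the genotypes overlapped for all 4. The 6.00% rested on wt/wt retina 2, at 13.8%, while wt/wt retinas 1 and 3 were at 2.34% and 1.86%.

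**Figure D2:**
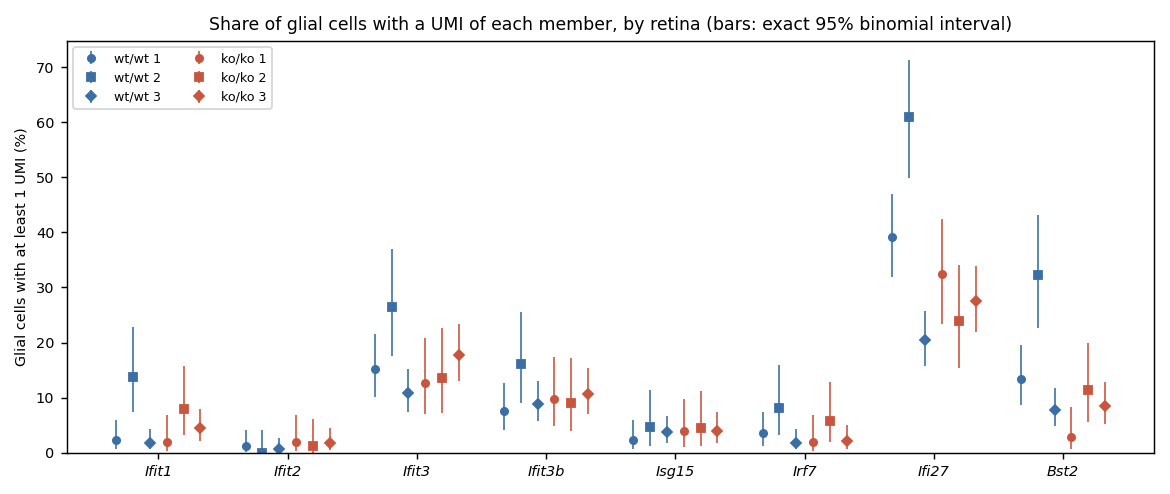
Share of glial cells with at least 1 UMI of each gene in each of the 6 retinas (blue wt/wt, red ko/ko), with exact Clopper-Pearson 95% intervals for counting error only. The point of wt/wt retina 2 is the highest for 7 of the 8 genes and the lowest for Ifit2, with wide intervals for the rare genes.

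Any of the 8 genes was detected in 464 of 942 glial cells (49.3%). The shares were 53.8%, 79.3% and 39.8% in wt/wt retinas 1, 2 and 3 and 52.0%, 38.6% and 48.4% in ko/ko retinas. The mean difference, ko/ko minus wt/wt, was -11.3 percentage points, but without wt/wt retina 2 it was -0.442. Within batch 2 the difference was -21.3 points and within batch 1, with 1 retina per genotype, it was 8.67 points.

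Shares depend on depth per cell, so each cell was also thinned to 500 UMIs and shallower cells were left out, 87 of them in glia and 25689 in photoreceptors. At this depth 26.1% of glial cells, 40.0% of mesenchymal cells and 23 of 92 RPE cells held a UMI of the 8 genes, against 2.00% of interneurons and 2.09% of photoreceptors. Unthinned, photoreceptors were at 2.17%. Irf7 made up most of the photoreceptor share, with 1.52% of thinned photoreceptors positive against 0.936% of thinned glia. Photoreceptors held 81.4% of the Irf7 UMIs, and also 21117203 of the 28002465 UMIs of all genes. Against interneurons, Irf7 was higher in glia in 6 of 6 retinas (28.5 against 6.25 CPM), with 8 of 855 thinned glial cells and 3 of 1999 thinned interneurons positive. Whether these few glial UMIs come from glia or from free RNA was not tested. The glial share of Ifit2 (0.351%) was below that of interneurons (0.700%). For Ifi27 the thinned shares were 14.5% in glia and 0.228% in photoreceptors, and for Ifit3 7.25% and 0.0900%.

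Within glia the UMIs of the 8 genes were unevenly spread over cells. No member was detected in 478 glial cells, 1 in 287 cells, and 2 or more in 177 cells (18.8%), of which 28 cells had 4 or more. The share of cells with 2 or more was 21.6%, 47.1% and 12.3% in wt/wt retinas 1, 2 and 3 and 12.7%, 14.8% and 17.8% in ko/ko retinas. In wt/wt retina 2, the highest of these, no cell held more than 17 UMIs of the 8 genes.

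**Figure D3:**
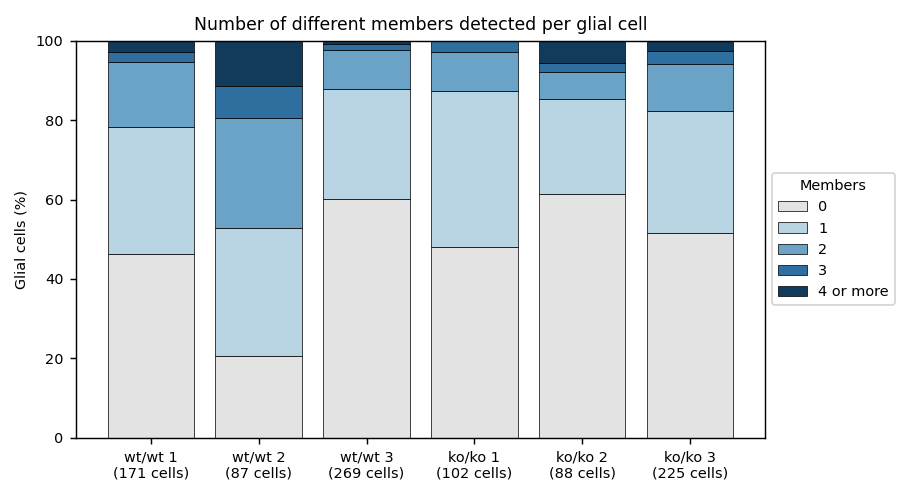
Percent of glial cells of each retina in which 0, 1, 2, 3 or 4 and more of the 8 genes were detected. In wt/wt retina 2, 47.1% of cells had 2 or more of the genes, and in the other 5 retinas 12.3% to 21.6%.

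Genes of the set were found in the same cells. Of 40 Ifit1-positive glial cells, 27 (67.5%) were also positive for Ifit3, against 12.9% of Ifit1-negative cells. Of 35 Isg15-positive cells, 18 (51.4%) were positive for Ifit3, against 13.8% of the others. Ifit1-positive cells were deeper than the rest (median of 2034 against 1662 UMIs), as were Isg15-positive cells (2058 against 1675), and the part of depth in these shares was not tested. Over 942 glial cells, Pearson's r of log-scaled UMIs was highest for Ifit1 with Ifit3 (0.42), Ifit1 with Isg15 (0.38) and Ifit1 with Ifit3b (0.36). For Ifi27 with the other 7 genes r was 0.05 to 0.16, and for Ifit2 with the others it was -0.03 to 0.05. These cells share libraries and counts are sparse, so the values are a description and the weakest of them are no finding.

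A few glial cells carried a large part of the signal. Cells with 10 or more UMIs of the 8 genes, a limit chosen after the values were seen, numbered 0, 3 and 1 in wt/wt retinas 1, 2 and 3 and 0, 4 and 6 in ko/ko retinas. These 14 of 942 cells held 349 of the 1297 UMIs (26.9%). In ko/ko retina 2, 4 of 88 cells held 187 of 247 UMIs (75.7%), and the top cell alone held 69 UMIs, among them 29 of Ifit3, 24 of Ifit3b and 10 of Ifit1. In ko/ko retina 3, 6 cells held 95 of 283 UMIs (33.6%), and in wt/wt retina 2, 3 cells held 41 of 227 UMIs (18.1%).

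The genes differed in how much of their signal lay in these 14 cells. They held 56.6% of the glial UMIs of Isg15, 55.0% of Ifit1, 43.6% of Ifit3, 40.8% of Ifit3b and 35.1% of Irf7. They held 16.1% of the UMIs of Bst2, 6.25% of those of Ifi27 and 0 of the 11 UMIs of Ifit2. Ifi27 was thus spread over many glial cells at 1 or a few UMIs: 175 of its 291 positive cells had 1 UMI. One of the 14 cells, in ko/ko retina 3, entered through 11 UMIs of Ifi27 with none of the other genes.

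As a group, the 14 cells carried Müller cell markers. Their Müller list summed to 55195 CPM, against 59460 CPM over all glia, with 0 of 10 markers at 0. Their astrocyte list summed to 2318 CPM, against 1492 CPM over all glia, and 38 of its 80 UMIs lay in 1 cell of ko/ko retina 3. Their microglia list summed to 2 UMIs with 9 of 10 markers at 0, and their fibroblast list was at 0 UMIs. Their endothelial list was at 811 CPM, within the range of 623 to 1066 CPM over the glia of the 6 retinas. Their median depth was 2250.5 UMIs, above the 1683 of all glia.

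**Figure D4:**
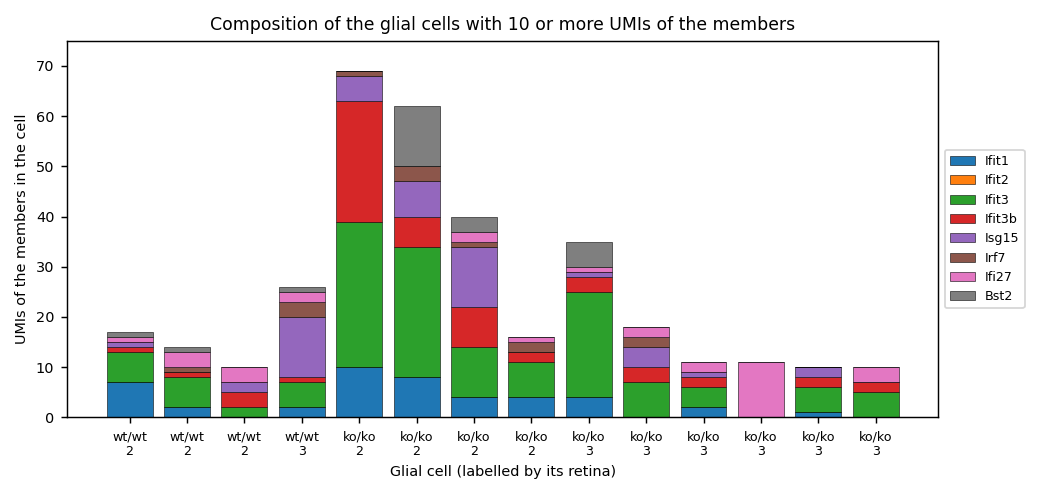
UMIs of each of the 8 genes (stacked colours) in the 14 glial cells with 10 or more such UMIs, labelled by retina. The 3 tallest bars, at 69, 62 and 40 UMIs, are all cells of ko/ko retina 2, and most bars are built mainly from Ifit3, Ifit3b, Ifit1 and Isg15.

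Leaving out these 14 cells lowered the mean level of Ifit3 in glia from 172 to 140 CPM in wt/wt and from 297 to 99.5 CPM in ko/ko retinas. For Ifit3b the ko/ko mean went from 149 to 48.9 CPM, and for Isg15 from 89.6 to 28.3 CPM. The cells were removed for their levels of these genes, so the difference between genotypes that remains is given as a value only. The summed level of all 8 genes averaged 944 CPM ± 527 (SD over 3 retinas) in wt/wt and 1036 CPM ± 575 in ko/ko with every cell, and 856 CPM ± 440 and 543 CPM ± 131 without the 14 cells. Both pairs of groups overlapped.

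Other genes whose UMIs followed the 8 genes over glial cells were ranked by Pearson's r with the mean of the 8, among 9587 genes found in at least 20 glial cells. Among the 5 most alike were Usp18 (r = 0.43), Irgm1 (0.30) and Herc6 (0.29). Usp18 encodes the protease that removes Isg15 from proteins, Irgm1 an immunity-related GTPase and Herc6 a ligase for Isg15. For Usp18 r was 0.84 in ko/ko retina 2 and 0.17 to 0.41 in the other 5 retinas. For Irgm1 it was 0.73 and 0.35 in ko/ko retinas 2 and 3 and 0.04 to 0.14 in the others. For Herc6 it was 0.50 and 0.32 in ko/ko retinas 2 and 3 and 0.14 to 0.25 in the others.

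No member of the set was called between genotypes in glia. UMI counts of the glia were summed per retina and the 3 ko/ko sums were compared with the 3 wt/wt sums over all genes with edgeR's quasi-likelihood test. Of the 8 genes, 4 had enough counts to be tested, and 0 of these 4 had an adjusted p under 0.05, as had 0 of all 4130 genes tested (0% called). At an unadjusted p under 0.05 there were 51 genes with edgeR, 69 with limma-voom and 15 with DESeq2, and the latter tools also called 0 genes after adjustment. Ifit3b had a log2 change, ko/ko minus wt/wt, of 1.02 (SE 0.57), Ifit3 of 0.80 (SE 0.55), Ifi27 of -0.66 (SE 0.43) and Bst2 of -0.69 (SE 0.62), and edgeR's adjusted p was 1.00 for each. The median log2 change of these 4 genes was 0.07 and that of all genes tested -0.02. Without ko/ko retina 2, which holds the highest cells, the log2 change of Ifit3 was -0.041 and that of Ifit3b 0.01. The lower values of the other 2 genes rested on single retinas as well. Leaving out 1 retina at a time moved the log2 change of Ifi27 between -1.07 (without wt/wt retina 3) and -0.098 (without wt/wt retina 2), and that of Bst2 between -1.45 (without ko/ko retina 2) and -0.074 (without wt/wt retina 2).

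The wider interferon pathway was likewise without a called gene in glia. Of 11 interferon genes, from Ifna1 and Ifnb1 to Ifng and Ifnl3, 0 UMIs were counted in any of the 46375 cells, which allows up to 0.107 CPM for each. All 6 receptor subunits on the list were detected in glia, where detected means at least 1 UMI over all glial cells, here and below. Ifnlr1 had only 2 UMIs in 2 cells. Ifngr1, a subunit of the interferon gamma receptor, averaged 144 CPM ± 24.1 (SD over 3 retinas) in wt/wt and 117 CPM ± 36.2 in ko/ko, Ifnar2 at 44.1 CPM ± 21.1 and 59.5 CPM ± 16.6, and Il10rb at 39.7 CPM ± 6.38 and 25.1 CPM ± 3.92. Of the 2 receptor genes tested, 0 were called, with log2 changes of -0.30 (SE 0.31) for Ifngr1 and 0.31 (SE 0.40) for Ifnar2.

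All 9 signal transducers were detected, 4 were tested and 0 were called. Irf3, a transcription factor that induces interferon, was at 102 CPM ± 8.59 in wt/wt and 68.4 CPM ± 24.3 in ko/ko glia, a log2 change of -0.53 (SE 0.31) that was not called, and Jak1 was at 66.8 CPM ± 12.7 and 60.2 CPM ± 32.5. Of 12 nucleic acid sensors and adaptors, 9 were detected, Mb21d1 and Tmem173 with 1 UMI each. Of the 12, 1 was tested and not called: Tlr3, a receptor for double-stranded RNA, at 61.3 CPM ± 17.3 and 49.3 CPM ± 17.9. Ifih1, a cytoplasmic RNA sensor, was at 34.4 CPM or less in each wt/wt retina and at 20.1, 103 and 12.7 CPM in ko/ko glia, so its higher ko/ko mean (45.3 against 21.8 CPM) rested on ko/ko retina 2. Tbk1, a kinase upstream of Irf3, was at 45.8 CPM ± 16.8 and 19.0 CPM ± 10.9.

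Of 44 other interferon-stimulated genes, 38 were detected in glia, among them Ifi44, Ifi27l2a, Ifitm1, Ccl5 and Phf11d with 1 UMI each. Of the 44, 6 were tested, 3 with a higher and 3 with a lower fitted value in ko/ko, and 0 were called. Ifitm3, which blocks virus entry, was at 191 CPM ± 95.7 in wt/wt and 116 CPM ± 24.4 in ko/ko (log2 change -0.73, SE 0.41), Ifi35 at 118 CPM ± 33.4 and 135 CPM ± 20.2, and Xaf1 at 82.0 CPM ± 28.3 and 80.6 CPM ± 16.5. Of 12 antigen presentation genes, 8 were tested and 0 were called. B2m, the light chain of class I molecules, was at 466 CPM ± 155 and 507 CPM ± 26.6, H2-K1, a class I heavy chain, at 186 CPM ± 31.9 and 185 CPM ± 45.1, and Psme1, a proteasome activator subunit, at 152 CPM ± 19.3 and 135 CPM ± 11.7. Of 6 negative regulators, 1 was tested and 0 were called. Pias1 was at 72.7 CPM ± 7.70 and 93.1 CPM ± 46.6, Ptpn2 at 35.5 CPM ± 7.63 and 29.3 CPM ± 13.9, and Socs3 at 13.7 CPM ± 11.4 and 13.3 CPM ± 6.99. The median log2 change of the tested genes of a list was between -0.31 (sensors, 1 gene) and 0.31 (negative regulators, 1 gene).

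In mesenchymal cells the fitted values of all 6 genes that could be tested were higher in ko/ko, and none was called. The calls were 0 of 6 members and 0 of 1717 genes (0% called), with 150 genes at an unadjusted p under 0.05 in edgeR, 134 in limma-voom and 87 in DESeq2, and 0 called by either. The median log2 change of the 6 was 0.76, against 0.03 over all genes tested. Ifit3 gave 2, 13 and 9 UMIs in wt/wt retinas and 19, 42 and 24 UMIs in ko/ko retinas, or 24.5, 139 and 99.3 against 243, 368 and 308 CPM. All ko/ko values lay above all wt/wt values, the only such gene among the 6 tested, as was the case for 9.26% of all genes tested. Its log2 change was 1.74 (SE 0.45), with an adjusted p of 0.470 in edgeR, which was 0.0433 with the batch as a covariate, a fit that called 1.22% of the 1717 genes. Over its 13 alternatives the adjusted p was 0.0290 to 0.998 and the log2 change 1.31 to 2.19. The gene was selected on earlier results of these data, so its p-values are a description.

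The other 5 genes tested in mesenchymal cells overlapped between genotypes. The log2 change was 0.84 (SE 0.51) for Ifit1, 0.81 (SE 0.47) for Irf7, 0.72 (SE 0.41) for Isg15, 0.30 (SE 0.37) for Bst2 and 0.25 (SE 0.39) for Ifi27, with adjusted p in edgeR of 0.663 to 0.912. Single retinas moved these values widely. With 1 retina left out the log2 change was 0.47 (without wt/wt retina 1) to 1.83 (without wt/wt retina 3) for Ifit1, 0.40 (without ko/ko retina 1) to 1.27 (without wt/wt retina 2) for Irf7 and 0.35 (without ko/ko retina 3) to 0.98 (without ko/ko retina 1) for Isg15, and those of Bst2 and Ifi27 turned in sign. Ifit3b was too low to be tested and gave 2, 4 and 4 UMIs in wt/wt and 6, 14 and 9 UMIs in ko/ko retinas, a mean of 37.1 CPM ± 10.9 (SD, n = 3) and 105 CPM ± 24.7. Its ko/ko values too lay above all wt/wt values, as did those of 4.41% of the genes with at least 1 UMI in mesenchymal cells.

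**Figure D5:**
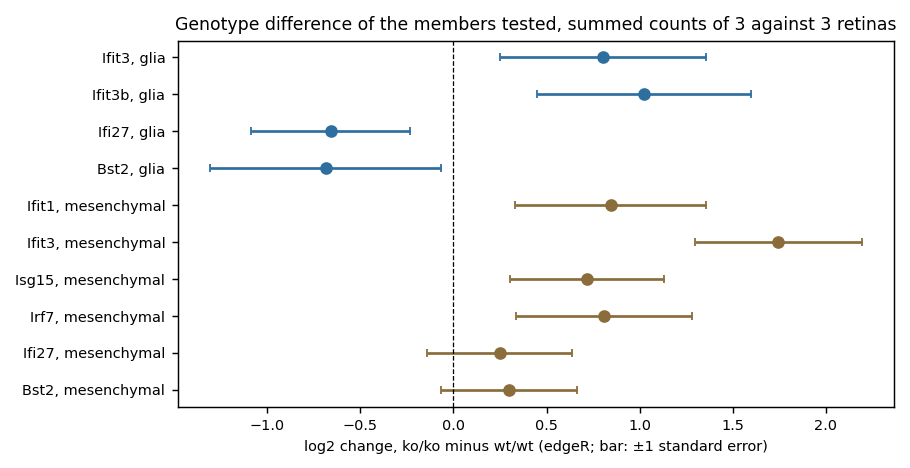
Log2 change, ko/ko minus wt/wt, with 1 standard error, from edgeR for the members tested in glia (blue) and mesenchymal cells (brown), 3 against 3 retinas. In glia Ifit3 and Ifit3b lie above 0 and Ifi27 and Bst2 below it, and Ifit3 in mesenchymal cells is farthest from 0 at 1.74. None had an adjusted p under 0.05 in this fit.

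The makeup of the mesenchymal cells differed between retinas. Of the values given here, only the microglia list was separated between the 2 genotypes, and the others overlapped. Their microglia list summed to 27428, 26350 and 19730 CPM in wt/wt retinas and to 9791, 17551 and 5457 CPM in ko/ko retinas, with 0 of 10 markers at 0 in each. Their endothelial list, with 0 of 8 markers at 0, summed to 4946, 7161 and 9352 CPM in wt/wt and to 11417, 8907 and 12237 CPM in ko/ko retinas. By these lists 22, 25 and 14 of the cells were microglia-like in wt/wt and 8, 19 and 6 in ko/ko retinas, and 10, 21 and 16 against 25, 23 and 19 were endothelial-like. The Müller list in mesenchymal cells summed to 6271, 1910 and 1963 CPM in wt/wt and to 9152, 12405 and 2311 CPM in ko/ko retinas. These values overlapped, and in glia the list was at 51643 to 65187 CPM. The part of this makeup, and of glial RNA in these cells, in the values of the 8 genes was not tested.

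Over all retinas pooled, the summed level of the 8 genes was 1858 CPM in 114 endothelial-like cells (76.3% of cells positive), 1311 CPM in 94 microglia-like cells (61.7%) and 784 CPM in 24 pericyte-like cells. The order of the first 2 classes was not the same in every retina. Microglia-like cells were higher in ko/ko retinas 1 (3186 against 1459 CPM) and 2 (2270 against 2156 CPM), and endothelial-like cells in the other 4. In ko/ko retinas 1 and 2 a single cell held 40 of 52 and 47 of 87 of these UMIs in microglia-like cells. In endothelial-like cells it was 15 of 68 and 43 of 120. The order in these 2 retinas thus rested on single cells. Isg15 was at 448 CPM in endothelial-like and 119 CPM in microglia-like cells, in the same order in all 6 retinas. Bst2 was at 354 and 480 CPM, but in retina 3 of each genotype it was higher in endothelial-like cells (241 against 140 CPM in wt/wt, 570 against 111 CPM in ko/ko). Single cells weighed on Ifit3 here too: 12 of the 19 UMIs of ko/ko retina 1 and 15 of the 42 UMIs of ko/ko retina 2 lay in 1 microglia-like cell each, and 7 of the 9 UMIs of wt/wt retina 3 in another cell. Within endothelial-like cells Ifit3 was at 0, 251 and 21.9 CPM in wt/wt and at 64.4, 377 and 397 CPM in ko/ko retinas, which overlapped. Within microglia-like cells it was at 46.8, 23.8 and 34.9 CPM in wt/wt and at 919, 548 and 111 CPM in ko/ko retinas, which did not overlap, on 2, 1 and 1 against 15, 21 and 1 UMIs. The ko/ko values of retinas 1 and 2 include the single cells named above, and that of retina 3 rests on 1 UMI in 6 cells. This difference was not tested. Of the 1717 genes tested over all mesenchymal cells, 3.67% were separated in that direction within microglia-like cells.

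In the remaining types the genes were too low for most tests. In photoreceptors 3 of the 8 genes passed the filter and 0 were called, as were 0 of 13053 genes (0% called, 109 at an unadjusted p under 0.05 in edgeR, 103 in limma-voom and 50 in DESeq2). Irf7 was at 34.0, 31.6 and 24.6 CPM in wt/wt and 44.9, 30.9 and 27.8 CPM in ko/ko photoreceptors, a log2 change of 0.22 that was 0.02 without ko/ko retina 1. Ifi27 was at 7.12, 8.50 and 5.31 CPM in wt/wt and 4.49, 3.90 and 3.85 CPM in ko/ko photoreceptors, all ko/ko values below all wt/wt values, which held for 3.72% of genes tested. Its log2 change was -0.74 and was not called.

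In interneurons 0 of the 8 genes passed the filter, and 0 of 7698 genes were called (0%, 86 at an unadjusted p under 0.05 in edgeR, 134 in limma-voom and 18 in DESeq2). Ifi27 gave 11.9, 45.7 and 13.5 CPM in wt/wt and 8.14, 4.32 and 10.7 CPM in ko/ko interneurons, and Ifit2 26.1, 9.62 and 13.5 against 4.07, 6.47 and 9.14 CPM. For these 2 of 8 genes all ko/ko values lay below all wt/wt values, against 3.41% of the genes with a UMI in interneurons, and their 61 and 50 UMIs over all retinas leave each value imprecise. In RPE cells Ifi27 alone was tested, with a log2 change of 0.92, which was 0.41 without wt/wt retina 3 and 2.08 without wt/wt retina 2. There 0 of 308 genes were called in edgeR (0%, 11 at an unadjusted p under 0.05, 9 in limma-voom, which also called 0, and 5 in DESeq2, which called 1).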

How the data were processed

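Per the submitters' processing notes, Cell Ranger 3.1.0 was used, and the authors deposited raw UMI counts per gene and cell, not normalized, with a table of the retina, genotype, batch and cell type of each cell. The authors made the types by Louvain clustering after LogNormalize and CCA integration in Seurat. The aligned build was GRCm38, and 52489 of 52636 identifiers were named with GENCODE M21. All columns were used, and doublets were not called here. The protocol label gives 1 sample per genotype, while the sample labels give 3 retinas each, which were used.

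For each retina and type the counts were added up, CPM were taken without scaling factors, and edgeR 4.0.16 (TMM, filterByExpr, glmQLFTest, Benjamini-Hochberg over all genes tested, adjusted p under 0.05) compared genotypes. The study used limma-voom, tried here as an alternative (limma 3.58.1) beside DESeq2 1.42.0. P-values measure the spread between 3 retinas per genotype, which in the reported fit includes the difference between the batches. Same-numbered interneuron sums deviated together (correlations of 0.10, 0.34 and 0.58), but wt/wt retina 1 correlated more with ko/ko retina 2 (0.33). For retina 3 of each genotype, which formed batch 1, number and batch cannot be told apart. The reported fit used no pairing. The edgeR fit was tested on simulated counts that held no batch effect. A mesenchymal cell was named after the marker list (microglia, endothelial, pericyte or fibroblast) that held more of its UMIs than the other 3 lists combined. The members and all lists were chosen with earlier results of these data known. Named genes were the 8 members, the 3 most abundant of each pathway list in glia, and the 5 genes most alike; a few of these were left out of the text. Proteins were not analysed here.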

Additional observations from a re-analysis of the deposited data

Results flagged for a closer look

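The summed level of the 8 genes differed between genotypes in opposite directions in 2 cell types. In mesenchymal cells all 3 ko/ko retinas lay above all 3 wt/wt retinas, by 816 CPM on average (1997 against 1181 CPM). In interneurons all 3 ko/ko retinas lay below all 3 wt/wt retinas, by 24.7 CPM (39.6 against 64.3 CPM). Of single genes with at least 1 UMI, 4.41% were separated upward in mesenchymal cells and 3.41% downward in interneurons. Among the genes tested in mesenchymal cells it was 9.26%. That share was not taken in interneurons, and none was taken for sums of 8 genes, which hold more UMIs than most single genes. The share of mesenchymal cells with any of the 8 genes overlapped between genotypes (66.4% in wt/wt, 69.2% in ko/ko). The lower sum in interneurons came from 3 of the 8 genes, with mean differences of -16.0 CPM for Ifi27, -9.84 CPM for Ifit2 and -3.85 CPM for Ifit1. The other 5 had a higher mean in ko/ko, by 0.335 CPM (Ifit3) to 1.79 CPM (Ifit3b). Within batch 2 the differences were -22.5 CPM for Ifi27, -12.6 CPM for Ifit2 and 1.59 CPM for Ifit1. Within batch 1, with 1 retina per genotype, they were -2.84, -4.36 and -14.7 CPM. Ifi27 was highest in wt/wt retina 2, at 45.7 CPM against a median of 11.3 CPM over the 6 retinas. The difference between cell types was not tested. In mesenchymal cells, microglia-like cells numbered 22, 25 and 14 in wt/wt and 8, 19 and 6 in ko/ko retinas, and endothelial-like cells 10, 21 and 16 and 25, 23 and 19. A single cell held 18.5% to 36.0% of the mesenchymal UMIs of the 8 genes in each retina. The part of either in the difference was not tested.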

How the results depend on the processing

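No gene was called in glia under any alternative tried. In mesenchymal cells, 0 genes were called in the reported fit, 21 with the batch as a covariate, 28 with no filter on low counts and 26 with the replicate number as a block. In RPE cells the reported fit called 0, and 1 was called by DESeq2, 3 with the batch as a covariate, 3 with no filter and 4 with the replicate block. Without the filter, 1 gene was called in interneurons and 1 in photoreceptors. Leaving out 1 retina at a time gave 0 to 7 calls in mesenchymal cells (7 without ko/ko retina 2), 0 to 2 in RPE cells (2 without wt/wt retina 3) and 0 in the other types. Ifit3 in mesenchymal cells passed the threshold with no filter on low counts (adjusted p 0.0343 in edgeR), with the batch as a covariate (0.0433) and with the replicate block (0.0290). Because the gene was selected on earlier results of these same data, these p-values are a description only. The sign of 3 log2 changes turned when 1 retina was left out: Ifit3 in glia ranged from -0.041 to 1.25, Bst2 in mesenchymal cells from -0.028 to 0.66 and Ifi27 in mesenchymal cells from -0.10 to 0.59. The causes were not tested. Same-numbered retinas of the 2 genotypes correlated by -0.07, 0.31 and 0.49 in glia, 0.09, 0.23 and 0.45 in mesenchymal cells, -0.07, 0.54 and 0.52 in photoreceptors and 0.09, 0.28 and 0.51 in RPE cells. Not every pair was over 0.1 in these types, so the numbers were not taken to pair them. In interneurons every same-numbered pair was over 0.1, but wt/wt retina 1 correlated more with ko/ko retina 2 (0.33). The block changed no call there (0 genes). The share of glial cells with any of the 8 genes differed by -20.2 to -0.442 percentage points when 1 retina was left out, and the summed level by -240 to 379 CPM. The summed difference of 91.5 CPM became -42.4 CPM without the highest cell of each retina and, in an alternative added after seeing the data, -313 CPM without the 14 cells with 10 or more UMIs. With 87 to 269 glial cells a retina, the rarest genes rest on 0 to 4 UMIs.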
